A study of Mus musculus with 12 samples.

Results

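The genes described here are 8 genes whose levels in fat are used as markers of adipose tissue expansion, out of 23474 genes in the deposited table. The name describes that use and not how the genes moved in these libraries. They were taken by symbol and are Mest, Nnat, Sfrp5, Bmp3, Npr3, Sncg, Cav1 and Cav2. Of these, 6 had values above 0 and 2, Cav1 and Cav2, were listed at 0 in every library. RNA-seq had been carried out on epididymal white adipose tissue (eWAT) of male C57BL/6J mice, with 3 libraries in each of 4 groups. The diets lasted 12 weeks and the mice were 17 weeks of age. The ND group ate a normal diet and the HFD group a high-fat diet. The GT group ate the same high-fat diet to which 0.25% (w/w) of an ethanol extract of green tea was added, and the TJ group ate it with 3% (w/w) of Taeeumjowuitang, a Korean herbal mixture. The GT and TJ mice thus shared the high-fat diet with the HFD mice, and the agents were given at different doses. Expression was given as FPKM, a fragment count that scales each gene to its length and each library to its depth.

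White adipose tissue expands by the enlargement of existing adipocytes and by the formation of new ones, and the genes of this group are known from both processes and from the adipocyte itself. Mest and Nnat are imprinted genes that are read from the paternal copy, and both encode proteins of the endoplasmic reticulum. Mest is a known marker of fat cell enlargement in mice fed a high-fat diet. Sfrp5 encodes a secreted decoy that binds Wnt ligands, among them Wnt5a. Bmp3 encodes a secreted protein of the bone morphogenetic protein (BMP) family that counteracts other BMPs. Npr3 encodes the clearance receptor that removes natriuretic peptides, which otherwise stimulate lipolysis. Sncg encodes γ-synuclein, a protein that is abundant in adipocytes and in peripheral neurons. Cav1 and Cav2 encode caveolins, the coat proteins of the membrane pits called caveolae, which are dense on adipocytes.

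One ND library stood apart and has to be named before the levels. The median Spearman correlation of ND 1 with the other libraries over genes was 0.243, against 0.789 to 0.966 for the other 11 libraries. Of those 11, ND 3 was the one at 0.789, and the next lowest was HFD 1 at 0.914. Its summed FPKM over 18 germ cell markers was 109744 and over 14 epididymis markers 23242, and its summed FPKM over 16 adipocyte markers was 8059, against 23310 to 86237 in the other 11. Smaller amounts of such transcripts were present in ND 3 (germ cell markers 3533), HFD 1 (germ cell markers 2313) and HFD 2 (epididymis markers 1292). The adipocyte markers themselves were high in 11 of 12 libraries, as the tissue named in the labels would have them. The approximate depth was 9.8M to 19.5M fragments per library. Each ND value is therefore given for the 3 libraries and for ND 2 and ND 3 alone.

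The sequences just before the transcription start are shown for Nnat and Sfrp5, the genes with the lowest adjusted p-values under TJ, and for Mest, the other imprinted gene. They are from RefSeq on GRCm38.p6, which gave such sequence for 7 of the 8 genes, and run 5′ to 3′ on the strand of the gene, in lower case. The 70 bases for Nnat lie at chr2:157560008-157560077 on the plus strand, next to a stretch of 180 bases that is left out because an exon of Blcap on the opposite strand covers it. The 250 bases for Sfrp5 lie at chr19:42202253-42202502 on the minus strand, outside any annotated exon. The 250 bases for Mest lie at chr6:30737800-30738049 on the plus strand, within an intron of the longer Mest transcripts. Capitals mark the letters GGGCGG.
Nnat: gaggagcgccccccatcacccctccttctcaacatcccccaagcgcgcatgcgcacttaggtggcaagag
Sfrp5: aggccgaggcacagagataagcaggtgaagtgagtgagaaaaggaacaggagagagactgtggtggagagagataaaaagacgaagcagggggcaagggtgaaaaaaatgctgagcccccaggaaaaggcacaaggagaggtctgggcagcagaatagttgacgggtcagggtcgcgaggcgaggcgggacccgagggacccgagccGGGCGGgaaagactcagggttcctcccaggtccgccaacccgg
Mest: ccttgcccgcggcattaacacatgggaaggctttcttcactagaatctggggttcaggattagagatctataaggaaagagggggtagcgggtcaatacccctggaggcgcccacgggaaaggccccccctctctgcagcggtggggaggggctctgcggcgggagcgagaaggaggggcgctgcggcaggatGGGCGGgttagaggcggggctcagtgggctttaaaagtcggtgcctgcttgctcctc
Searched on both strands were AGGTCA (a core site of nuclear receptors), TTGCNNAA (bound by C/EBP factors), TATAAA (the TATA box), CCAAT (bound by NF-Y), GGGCGG (the GC box) and AGAACA (a core site of the glucocorticoid receptor), and no match overlapped another. GGGCGG was found in the stretches of Sfrp5 and Mest, and 32.7% of 32851 RefSeq windows of 250 bases hold it. None of the other letters was found in the 3 stretches, which says only that they are not in these bases. The stretches of Sfrp5 and Mest hold 13 and 14 CG dinucleotides, counts that 31.5% and 29.4% of all such windows reach.

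Mest (chromosome 6, 30723547 to 30748465, plus strand, GRCm38) had FPKM values of 335, 449 and 425 in the HFD libraries, 541, 737 and 756 in the GT libraries and 440.4, 181 and 559.6 in the TJ libraries. In the ND group it was at 3.09, 556 and 507. The GT libraries all lay above the HFD libraries, whereas the TJ libraries spread on both sides of them, with TJ 2 lowest. ND 1 held 0.582% of the mean of ND 2 and ND 3. The order of the group means was GT (678 ± 119 FPKM, SD, n = 3), HFD (403 ± 60.0), TJ (394 ± 194) and ND (355 ± 306). Without ND 1, the ND mean was 532 ± 34.7 (n = 2) and stood second. Neighbours in this order overlapped except GT and HFD, and HFD and the remaining ND libraries.

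Nnat (chromosome 2, 157560078 to 157562522, plus strand) was at 371, 313 and 255 FPKM in the HFD libraries, 573, 679 and 972 in the GT libraries and 1439, 2049.5 and 1082 in the TJ libraries. In the ND group it was at 94.5, 1162 and 851. The 3 groups on the high-fat diet did not overlap, in the order HFD, GT and TJ, and the HFD libraries lay below ND 2 and ND 3. The means were 1523 ± 489 FPKM (SD, n = 3) in TJ, 741 ± 207 in GT, 702 ± 549 in ND and 313 ± 58.1 in HFD. ND 2 and ND 3 had a mean of 1006 ± 219.7 (n = 2), which overlapped with both GT and TJ.

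Sfrp5 (chromosome 19, 42197971 to 42202252, minus strand) was at 209.5, 163 and 181 FPKM in the HFD libraries, 253, 324 and 403 in the GT libraries and 357, 343 and 375 in the TJ libraries. In the ND libraries it was at 10.4, 103 and 114, the lowest 3 values of the series. HFD lay above ND, and GT and TJ lay above HFD and overlapped with each other. The means were 358 ± 15.7 FPKM (SD, n = 3) in TJ, 326 ± 75.0 in GT, 184 ± 23.6 in HFD and 75.7 ± 56.9 in ND, or 108 ± 7.99 (n = 2) without ND 1.

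Bmp3 (chromosome 5, 98854415 to 98884396, plus strand) was the least expressed of the 6 genes. It was at 22.2, 27.8 and 32.3 FPKM in the HFD libraries, 21.1, 23.5 and 31.8 in the GT libraries and 22.4, 13.8 and 26.1 in the TJ libraries. In the ND libraries it was at 0.740, 15.9 and 8.19. Every HFD and GT library lay above every ND library, while TJ 2 fell between ND 2 and ND 3. The means were 27.4 ± 5.04 FPKM (SD, n = 3) in HFD, 25.5 ± 5.60 in GT, 20.8 ± 6.30 in TJ and 8.29 ± 7.60 in ND, or 12.1 ± 5.48 (n = 2) without ND 1.

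Npr3 (chromosome 15, 11839896 to 11907287, minus strand) was at 170.2, 227 and 221 FPKM in the HFD libraries, 239, 257 and 313 in the GT libraries and 220.1, 128 and 249 in the TJ libraries. In the ND libraries it was at 4.17, 271 and 192. The GT libraries lay above the HFD libraries, and all other neighbouring groups overlapped. The means were 269.6 ± 38.9 FPKM (SD, n = 3) in GT, 206 ± 31.3 in HFD, 199 ± 63.3 in TJ and 156 ± 137 in ND, or 232 ± 55.8 (n = 2) without ND 1.

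Sncg (chromosome 14, 34370274 to 34374789, minus strand) was at 558, 528 and 537 FPKM in the HFD libraries, 499, 654 and 874 in the GT libraries and 934, 1734 and 914 in the TJ libraries. In the ND libraries it was at 319.7, 848 and 527. The TJ libraries lay above all others, and HFD, GT and ND overlapped. The means were 1194 ± 468 FPKM (SD, n = 3) in TJ, 676 ± 188 in GT, 541 ± 15.6 in HFD and 565 ± 266 in ND, or 687 ± 227 (n = 2) without ND 1. ND 1 kept 46.5% of the mean of ND 2 and ND 3 for Sncg, against 0.582% to 9.56% for the other 5 genes.

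**Figure D1:**
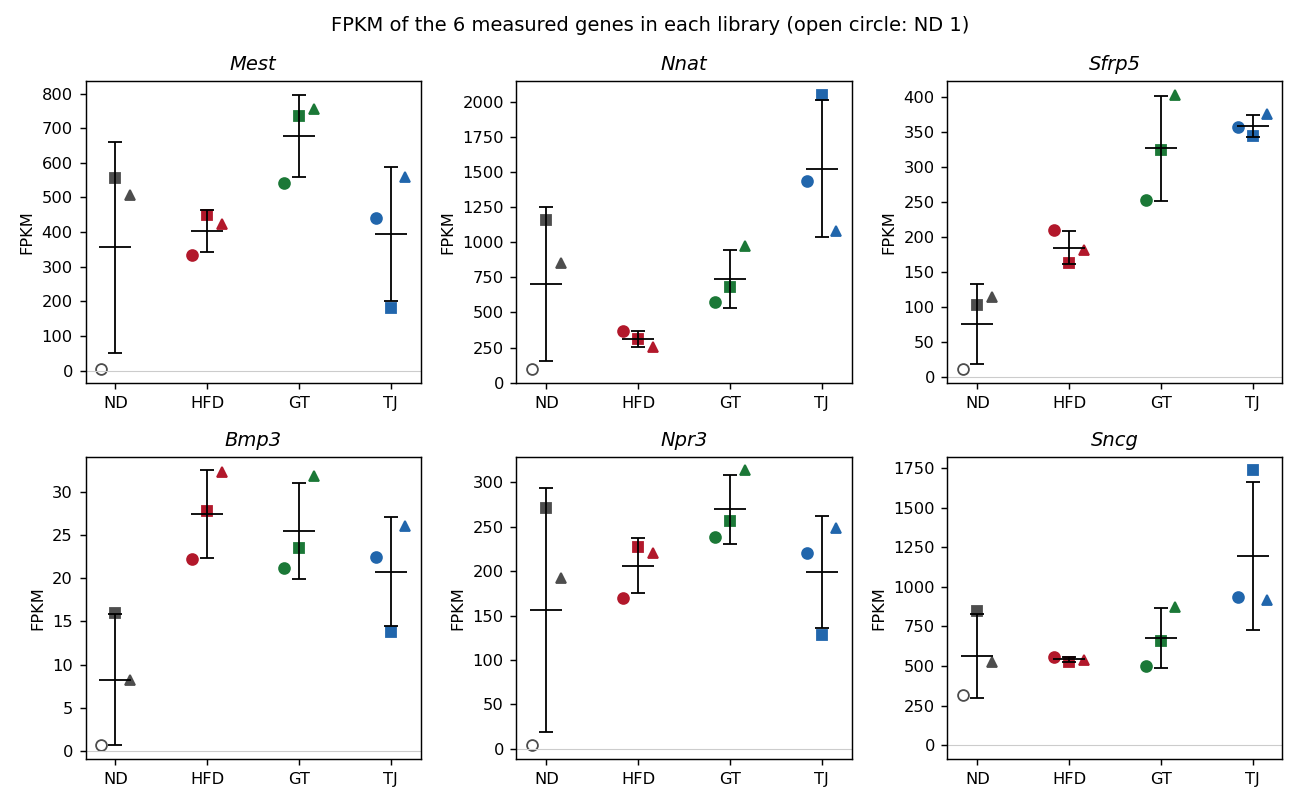
FPKM (linear axis) of the 6 measured genes in each library, by group (circle, square and triangle for libraries 1, 2 and 3). The black bar and whiskers are the mean and SD of 3 libraries. ND 1, the open circle, is the lowest library for all 6 genes. The 3 groups on the high-fat diet are apart for Nnat, and TJ 2 is the lowest TJ library for Mest, Bmp3 and Npr3 and the highest for Nnat and Sncg.

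Cav1 (chromosome 6, 17306335 to 17341452) and Cav2 (chromosome 6, 17281185 to 17289115), both on the plus strand, were listed at 0 in all 12 libraries, and no level can be given for them. The neighbour before them, Tes, was also at 0, while Met and Capza2 after them were at 0.396 to 10.2 and 9.23 to 167 FPKM. Over all genes, 2282 stood at 0 in every library, 1555 of them protein-coding. Among these were Skp1a, Ppp2ca, Stub1 and Srf, which encode proteins that every cell uses. The other genes of the caveola are described with the pathways.

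The comparison of TJ with HFD asked how the herbal mixture changed eWAT of mice on the same high-fat diet. Nnat, Sfrp5 and Sncg rose with TJ, and Mest, Npr3 and Bmp3 did not pass the test. Nnat was 4.86-fold higher as a ratio of mean FPKM, Sncg 2.21-fold and Sfrp5 1.94-fold. The groups did not overlap for these 3 genes. The limma log2 fold changes on the log2(FPKM + 1) scale were 2.25 for Nnat (SE 0.27, adjusted p = 0.0196), 0.96 for Sfrp5 (SE 0.15, adjusted p = 0.0218) and 1.07 for Sncg (SE 0.26, adjusted p = 0.0372). A gene was called where the adjusted p was under 0.05 and the change was 1.5-fold or more. By this rule 3 of the 6 tested genes were called, all higher, where 18.5% of the 12807 genes tested were called and 7.41% were called higher. The same 3 were the genes whose TJ libraries lay above all HFD libraries, as 20.1% of tested genes did.

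For the other 3 genes the intervals were wide. Mest differed by -0.17 on the log2 scale (95% interval -1.13 to 0.78, adjusted p = 0.756), Npr3 by -0.10 (-0.73 to 0.54, adjusted p = 0.798) and Bmp3 by -0.41 (-1.01 to 0.18, adjusted p = 0.244). TJ 2 was the lowest TJ library for all 3. Without it, the values turned to 0.31 for Mest and 0.19 for Npr3, and that of Bmp3 went to -0.16. TJ 2 also had the highest summed adipocyte markers of the series (86237 FPKM) and, for the adipokine leptin, the lowest level among the 9 libraries on the high-fat diet (Lep, 292 FPKM). For 3 libraries against 3 the smallest two-sided p of an exact permutation test is 0.1, which Nnat, Sfrp5 and Sncg reached.

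The median gene differed by -0.139 on the log2 scale between TJ and HFD, and by -0.017 after median-of-ratios scaling. With that scaling the log2 fold changes were 2.39 for Nnat, 1.10 for Sfrp5 and 1.22 for Sncg, and all 3 were again called, while Npr3 turned to 0.045. Not every alternative kept the calls. Sncg lost its call without a filter and with the replicate block. With all 12 libraries in the fit 0 of the 6 genes were called, and 3 with the 11 libraries other than ND 1. The calls needed nearly all libraries: without HFD 1, HFD 2, HFD 3 or TJ 1, limma called 0 genes in the whole table, with 3732 to 4735 genes at an unadjusted p under 0.05. With 1 library left out the log2 fold changes lay at 2.01 to 2.47 for Nnat, 0.88 to 1.06 for Sfrp5 and 0.77 to 1.23 for Sncg. Without both HFD 1 and HFD 2, the libraries with germ cell or epididymis transcripts, they were 2.53, 0.98 and 1.08. That fit holds a single HFD library, taken to vary like the TJ group, and is no test of the calls.

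Markers of several cell types moved between these groups. Adipocyte markers summed to 23310 to 25738 FPKM in HFD and 44430 to 86237 in TJ, and 11 of 16 were called higher and 0 lower. By sign alone 14 were higher and 2 lower. Lep, which was not called, was lower in every TJ library (292 to 825 FPKM) than in any HFD library (899 to 1196). Macrophage markers summed to 3834 to 5403 in HFD and 751 to 2567 in TJ, with 8 of 11 called lower. Endothelial markers summed to 439 to 537 in HFD and 831 to 1280 in TJ, with 5 of 10 called higher. Progenitor markers summed to 1056 to 1154 in HFD and 785 to 1051 in TJ, with 5 of 10 called lower. In bulk tissue, more cells of a type and more RNA per cell cannot be told apart.

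Set against the mean log2(FPKM + 1) of the 16 adipocyte markers, which was 1.10 higher in TJ than in HFD, the 6 genes fell into different positions. This comparison was added after the values had been seen and has no test. For Nnat the difference from the markers was 1.15 higher in TJ than in HFD, and the groups were apart, from below the marker mean in all HFD libraries to above it in all TJ libraries. Of all tested genes, 0.617% were higher in every TJ library than in any HFD library on this scale. Sfrp5 (-0.14) and Sncg (-0.02) moved as far as the markers did, and their groups overlapped. Mest (-1.27), Npr3 (-1.19) and Bmp3 (-1.51) were lower in every TJ library than in any HFD library on this relative scale, as 90.7% of all tested genes were, and the median tested gene differed by -1.24, so that these 3 values set the genes apart from the markers but not from the whole table. With the median of the markers in place of their mean, the differences were 1.04 for Nnat, -0.25 for Sfrp5, -0.14 for Sncg, -1.38 for Mest, -1.31 for Npr3 and -1.63 for Bmp3, with the same separations.

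**Figure D2:**
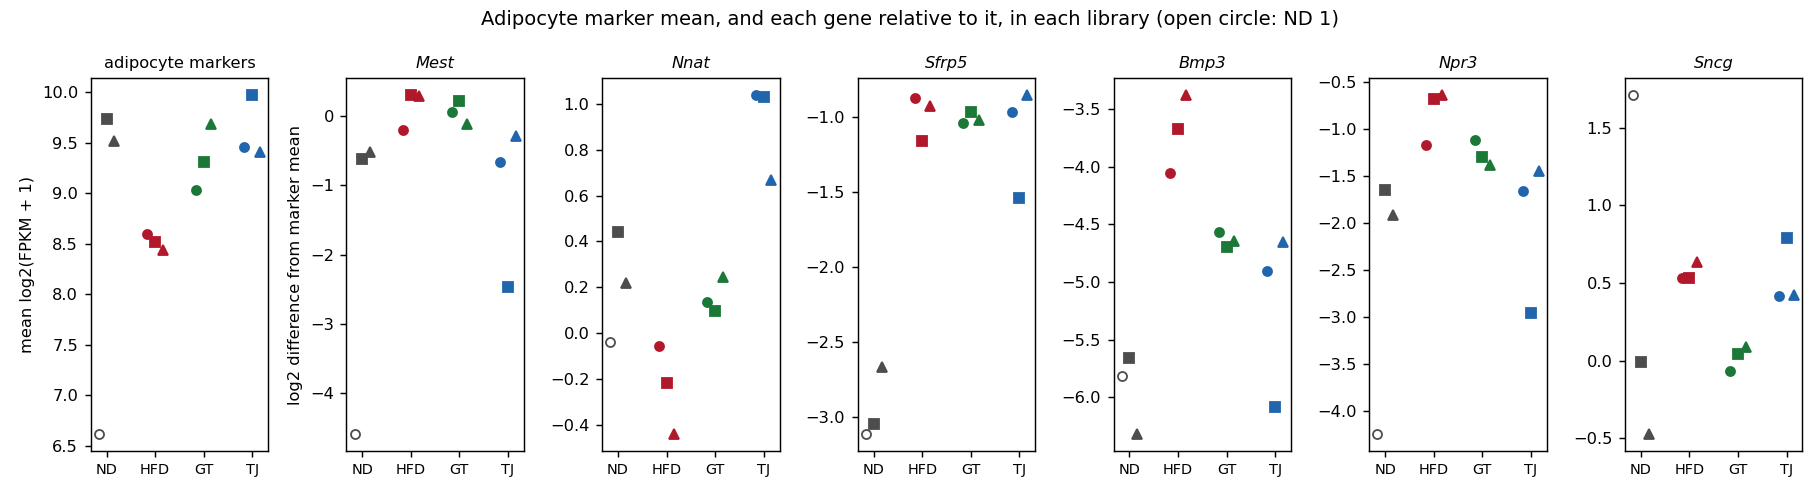
Mean log2(FPKM + 1) of the 16 adipocyte markers in each library (left panel) and the log2 difference of each gene from that mean (other panels, each with its own axis). Symbols mark libraries 1, 2 and 3 of each group. Nnat is highest in the TJ libraries on this scale, while Mest, Npr3 and Bmp3 are lower in the TJ than in the HFD libraries, as 90.7% of all tested genes are.

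The comparison of GT with HFD asked the same of green tea extract, with the same 3 HFD libraries. Nnat rose, 2.37-fold in mean FPKM (log2 fold change 1.22, SE 0.22, adjusted p = 0.0409), and was the only one of the 6 tested genes called, where 3.63% of the 12766 genes tested were called and 1.83% were called higher. Sfrp5 (0.80, SE 0.19, adjusted p = 0.0575) and Mest (0.74, SE 0.17, adjusted p = 0.0583) missed the threshold narrowly. The GT libraries lay above the HFD libraries for Mest, Nnat, Sfrp5 and Npr3, that is for 4 of 6 genes, as they did for 12.3% of all tested genes. Npr3 differed by 0.39 (95% interval 0.02 to 0.76, adjusted p = 0.157), Sncg by 0.28 (-0.18 to 0.75, adjusted p = 0.369) and Bmp3 by -0.11 (-0.56 to 0.34, adjusted p = 0.719).

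The call of Nnat was lost without HFD 1, HFD 2, HFD 3, GT 2 or GT 3, with adjusted p-values between 0.0574 and 0.177 and log2 fold changes between 1.01 and 1.35. Without GT 1, 3 of the 6 genes were called, Nnat (1.39, adjusted p = 0.0326), Sfrp5 (0.97, adjusted p = 0.0327) and Mest (0.90, adjusted p = 0.0337), where 8.63% of all tested genes were called in that fit. Adipocyte markers summed to 33971 to 45848 FPKM in GT, above all HFD libraries, and 6 of 16 were called higher. Macrophage markers summed to 1404 to 3428, with 1 of 12 called lower and all 12 at an unadjusted p under 0.05, endothelial markers to 557 to 665, with 0 of 10 called by limma and 3 at an unadjusted p under 0.05, and progenitor markers to 770 to 839, with 5 of 10 called lower. Relative to the adipocyte markers, which were 0.83 higher in GT, Nnat was higher by 0.40 and Sncg and Bmp3 were lower by values of -0.54 and -0.93, with groups apart. On this scale 0.282% of all tested genes were apart and higher and 88.0% apart and lower, with a median of -0.95, so that the lower values of Sncg and Bmp3 were no more than those of the whole table. Mest, Sfrp5 and Npr3 overlapped on that scale. With the median of the markers, Nnat overlapped (0.02), and Mest, Sfrp5, Npr3, Sncg and Bmp3 were all lower in GT, at -0.45, -0.40, -0.81, -0.92 and -1.31, where the median tested gene was at -1.32 and 95.9% were apart and lower.

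TJ and GT were also compared directly, and here 0 of the 6 genes were called by limma, where 0.148% of 12187 tested genes were. At an unadjusted p under 0.05 there were 2, Nnat and Sncg, where 24.6% of all tested genes had such a p. Nnat was 2.06-fold higher in TJ (log2 fold change 1.02, SE 0.30, adjusted p = 0.130) and Sncg 1.77-fold higher (0.79, SE 0.32, adjusted p = 0.185, or 0.49 without TJ 2), and the TJ libraries lay above the GT libraries for both genes, as for 19.5% of tested genes. Mest was lower in TJ by a log2 value of -0.92 (95% interval -1.84 to 0.01, adjusted p = 0.205), and Npr3 by -0.48 (-1.09 to 0.13, adjusted p = 0.275). Without TJ 2 these values were -0.43 and -0.19. Sfrp5 differed by 0.16 (-0.30 to 0.62, adjusted p = 0.611) and Bmp3 by -0.31 (-0.90 to 0.28, adjusted p = 0.439), or -0.05 without TJ 2. Since this comparison is the test of the difference between the effects of TJ and GT, no gene of the 6 was shown to respond to them differently at these doses.

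**Figure D3:**
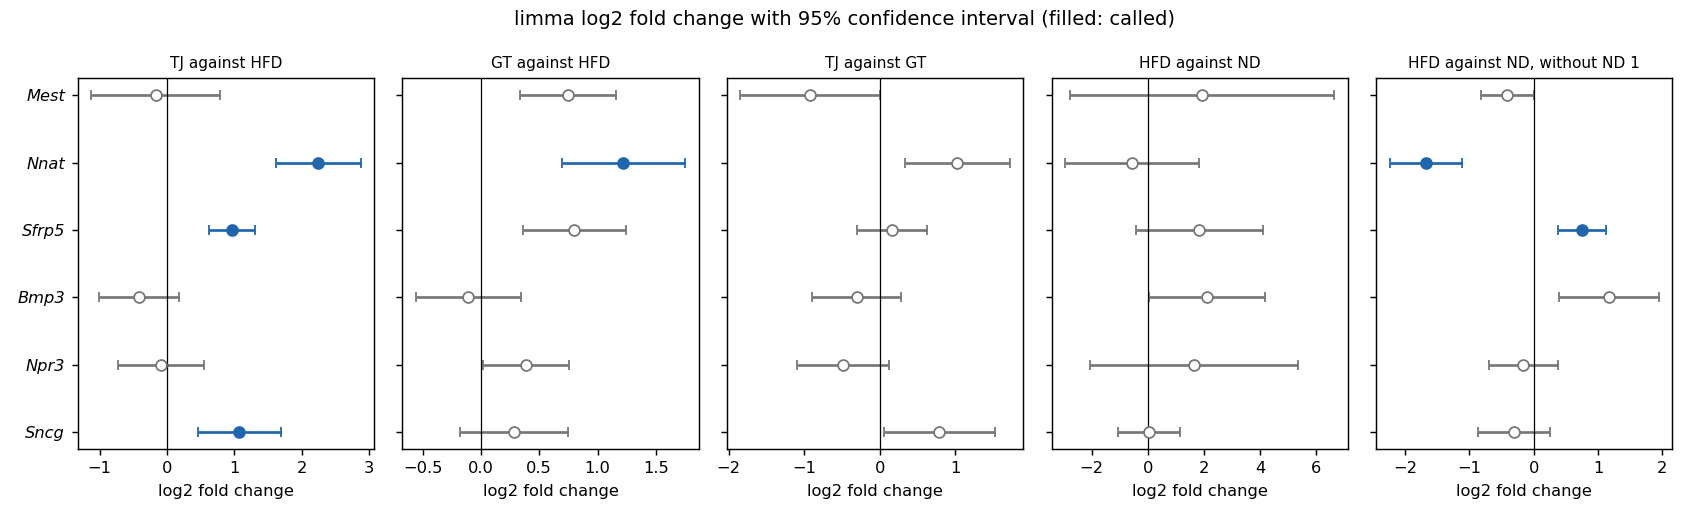
limma log2 fold change on the log2(FPKM + 1) scale, with its 95% confidence interval, for the 6 genes in each comparison (each panel has its own horizontal scale). Filled points were called. The intervals for HFD against ND are wide with ND 1 in the fit (-2.78 to 6.65 for Mest) and narrow without it (-0.83 to 0.01), where Nnat is called lower and Sfrp5 higher.

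The comparison of HFD with ND asked how the diet itself changed the tissue, and its outcome turned on ND 1. With all 3 ND libraries limma called 0 of the 6 genes, where 1.77% of 14430 genes were called. Bmp3 alone had an unadjusted p under 0.05, as 11.6% of tested genes had (log2 fold change 2.12, SE 0.84, adjusted p = 0.416). Bmp3 and Sfrp5 (1.84, SE 0.93, adjusted p = 0.494) were higher in every HFD library than in any ND library, as 20.5% of tested genes were. The values for Mest (1.93), Npr3 (1.66), Nnat (-0.55) and Sncg (0.05) had standard errors of 0.45 to 1.93.

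Without ND 1, Nnat fell and Sfrp5 rose with the high-fat diet. The log2 fold change of Nnat was -1.68 (SE 0.22, adjusted p = 0.00910) and that of Sfrp5 0.76 (SE 0.15, adjusted p = 0.0274). Thus 2 of 6 genes were called, where 15.4% of 13661 genes were called. Bmp3 was 2.28-fold higher in mean FPKM (log2 1.17, SE 0.31, adjusted p = 0.0613), with all HFD libraries above ND 2 and ND 3, as for 28.0% of tested genes. Mest (-0.41, 95% interval -0.83 to 0.01, adjusted p = 0.171) changed sign against the fit with ND 1, and so did Npr3 (-0.16, -0.70 to 0.38, adjusted p = 0.642) and Sncg (-0.30, -0.86 to 0.25, adjusted p = 0.418). With median-of-ratios scaling besides, Nnat kept its call and Sfrp5 lost it (0.71, adjusted p = 0.0656). With further libraries left out besides ND 1, Sfrp5 lost its call without HFD 1 (adjusted p = 0.0795) and both genes lost it without HFD 2 (adjusted p = 0.0561 for Nnat and 0.0610 for Sfrp5). Without ND 3 both kept it and Sncg was called lower (-0.65, adjusted p = 0.0227), in a fit that takes the lone ND library to vary like the HFD group. In the fit with all 3 ND libraries, a block for the replicate number left 0 genes of the whole table called, against 255 without it. In that blocked fit 2239 genes had an unadjusted p under 0.05. No source pairs these libraries by number, and the fits without ND 1 held no block. The adipocyte markers summed to 40539 and 60605 FPKM in ND 3 and ND 2 and the macrophage markers to 443 and 566, against 23310 to 25738 and 3834 to 5403 in HFD. Relative to the mean of the adipocyte markers, which was lower in HFD than in ND 2 and ND 3 (a log2 difference of -1.11), Mest, Npr3 and Sncg were higher in HFD, by 0.70, 0.95 and 0.81, and so were Sfrp5 (1.87) and Bmp3 (2.28), while Nnat was lower (-0.57), with the groups apart for all 6 genes and no test. Of all tested genes 78.7% were apart and higher and 0.871% apart and lower on this scale, and the median gene differed by 1.09, so that the values of Mest, Npr3 and Sncg lay below that of the median gene and those of Sfrp5 and Bmp3 above it. With the median of the markers the directions were the same and Nnat overlapped (-0.36).

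Against ND 2 and ND 3, the values of the groups on the high-fat diet can be set side by side as ratios of mean FPKM, with no test. Nnat stood at 0.311 in HFD, 0.737 in GT and 1.51 in TJ. Sfrp5 stood at 1.70, 3.01 and 3.31, and all libraries of the 3 groups lay above ND 2 and ND 3. Bmp3 stood at 2.28, 2.11 and 1.72, Sncg at 0.787, 0.983 and 1.74, Mest at 0.758, 1.28 and 0.741, and Npr3 at 0.889, 1.16 and 0.858. Nnat was thus lower than ND 2 and ND 3 in HFD and overlapped with them in both supplemented groups, whereas Sfrp5 moved further from them. In HFD, Sfrp5 and Bmp3 lay above ND 2 and ND 3, Mest lay below them, and Npr3 and Sncg overlapped. With TJ, Nnat, Sfrp5 and Sncg were higher than in HFD, while the study reports visibly smaller epididymal adipocytes. Higher levels of these genes are therefore not read as tissue expansion, and their relation to fat cell size was not tested.

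Some of these genes lie across other genes on the annotation, and the way the reads were assigned to strands is not stated in the sources used here. Nnat lies within the span of Blcap, an imprinted gene on the opposite strand, with no shared exonic base. Blcap rose with TJ (log2 fold change 0.87, adjusted p = 0.0241), less than Nnat, and differed by 0.51 in GT against HFD (adjusted p = 0.0379), under the fold threshold. Mest and Copg2 run towards each other and share 912 exonic bases. Copg2 differed by 0.56 in TJ against HFD (adjusted p = 0.0416), also under the fold threshold. Mest also hosts the microRNA gene Mir335, for which the table has no row. Nnat shares 87 exonic bases with the microRNA gene Gm23134, and Npr3 shares 321 with the noncoding RNA gene Gm5144. Both of these lie on the opposite strand and have no row either.

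The other imprinted genes were read from a list of 29, of which 21 were tested in TJ against HFD. Of these, 5 rose and 1 fell, where 18.5% of all tested genes were called either way and 7.41% higher. The median log2 fold change was 0.42 against -0.14 for all tested genes. Those that rose were Peg3 (1.02, adjusted p = 0.0361), Blcap, Ndn (0.82, adjusted p = 0.0390), Sgce (0.80, adjusted p = 0.0277) and Gnas (0.61, adjusted p = 0.0347). Peg3, which encodes a zinc finger protein, went from 40.9 ± 9.14 FPKM in HFD to 84.8 ± 21.9 in TJ (SD, n = 3), and it was also the 1 gene of 21 called with GT (1.15, adjusted p = 0.0340), where 3.63% of all tested genes were. Igf2r, the receptor that takes up and clears IGF2, fell from 46.8 ± 5.98 to 20.3 ± 6.45 FPKM (-1.21, adjusted p = 0.0284). The highest value belonged to Igf2 (1.44, adjusted p = 0.0758), which did not pass.

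In the Wnt list 2 of 22 tested genes rose with TJ and 2 fell, a share called that lay near the 18.5% of all tested genes. The coreceptor Lrp5 rose by 0.85 on the log2 scale (adjusted p = 0.0247), the ligand Wnt11 rose by 0.73 (adjusted p = 0.0382), the receptor Fzd7 fell by 1.28 (adjusted p = 0.0199) and Dkk3, of the Dickkopf family, fell by 1.01 (adjusted p = 0.0248). The list's median was -0.35. With GT, Lrp5 rose (0.75, adjusted p = 0.0464) and Fzd7 (-0.77, adjusted p = 0.0379) and the receptor Fzd1 (-0.65, adjusted p = 0.0379) fell, of 23 tested, against 3.63% of all tested genes called. Wnt5a, the ligand that Sfrp5 binds, was at 7.50 ± 0.648 FPKM in HFD and 6.41 ± 2.099 in TJ (log2 fold change -0.24, adjusted p = 0.443).

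In the BMP list 5 of 31 tested genes rose with TJ and 3 fell, where 18.5% of all tested genes were called and 7.41% were called higher, and the median was -0.05. Id1 and Id3, targets of BMP signals, rose by 2.11 and 1.32 on the log2 scale (adjusted p = 0.0248 for both). The ligands Bmp4 and Bmp6 rose by 1.33 and 1.13 (adjusted p = 0.0275 and 0.0232), and so did the inhibitory Smad6, by 0.68 (adjusted p = 0.0457). The follistatin-like Fstl1 fell by 1.42 (adjusted p = 0.0196), the receptor Bmpr2 fell by 1.38 (adjusted p = 0.0429) and the activin antagonist Fst fell by 1.18 (adjusted p = 0.0281). With GT, Fstl3 (1.01, adjusted p = 0.0379) and Bmp6 (0.62, adjusted p = 0.0385) rose and Fst (-0.82, adjusted p = 0.0379) and Fstl1 (-0.66, adjusted p = 0.0379) fell, of 29 tested, against the same 3.63% over all genes. The endothelial markers, of which 5 of 10 rose with TJ, moved with Id1 and Id3, and their part in these values was not tested.

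In the natriuretic peptide list 3 of 8 tested genes rose with TJ and 0 fell, against 7.41% of all tested genes called higher and 18.5% called either way. The list's median was -0.002. Npr2, the receptor for the C-type peptide, rose by 1.24 (adjusted p = 0.0232), Npr1, the receptor for the atrial peptide, by 0.75 (adjusted p = 0.0407) and Pde9a, a phosphodiesterase for cyclic GMP, by 0.63 (adjusted p = 0.0314). The lowest value belonged to the peptidase Mme (-0.97, adjusted p = 0.136). With GT, limma called 0 of 8, with 2 at an unadjusted p under 0.05, and the highest value belonged to Pde3b (0.63, adjusted p = 0.0593).

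Among the caveola components other than Cav1 and Cav2, 3 of 10 tested genes rose with TJ and 1 fell, against 18.5% of all tested genes called and 7.41% called higher, and the median was 0.29. Pacsin3, of a family of membrane-bending proteins, rose by 1.43 (adjusted p = 0.0248), the caveolar coat gene Cavin1 by 0.69 (adjusted p = 0.0295) and Flot1 by 0.59 (adjusted p = 0.0438), and Ehd4 fell by 1.08 (adjusted p = 0.0293). Cavin1 went from 538 ± 43.7 FPKM in HFD to 871 ± 78.4 in TJ (SD, n = 3). With GT, Pacsin3 (0.85, adjusted p = 0.0464) and Ehd2 (0.69, adjusted p = 0.0478) rose, of 10 tested, against 3.63% of all tested genes called. In HFD against ND with ND 1 in the fit, and in TJ against GT, limma called 0 genes of these 5 lists. At an unadjusted p under 0.05 there were 3 of 10 and 2 of 10 caveola components, 2 of 22 and 5 of 21 imprinted genes, 5 of 25 and 5 of 21 genes of the Wnt list, 3 of 32 and 11 of 31 of the BMP list, and 0 of 9 and 5 of 8 of the natriuretic peptide list. Over all tested genes such a p was found for 11.6% in HFD against ND and 24.6% in TJ against GT, so that several of these counts lay at or below the share of the whole table. Without ND 1, limma called 3 of 10 caveola components (2 higher, 1 lower) and 8 of 21 imprinted genes (1 higher, 7 lower) in HFD against ND. It called 2 of 24 genes of the Wnt list (1 higher, 1 lower) and 9 of 32 of the BMP list (4 higher, 5 lower). Of the natriuretic peptide list 1 of 9 was called, which was lower. In that fit 15.4% of all tested genes were called.

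**Figure D4:**
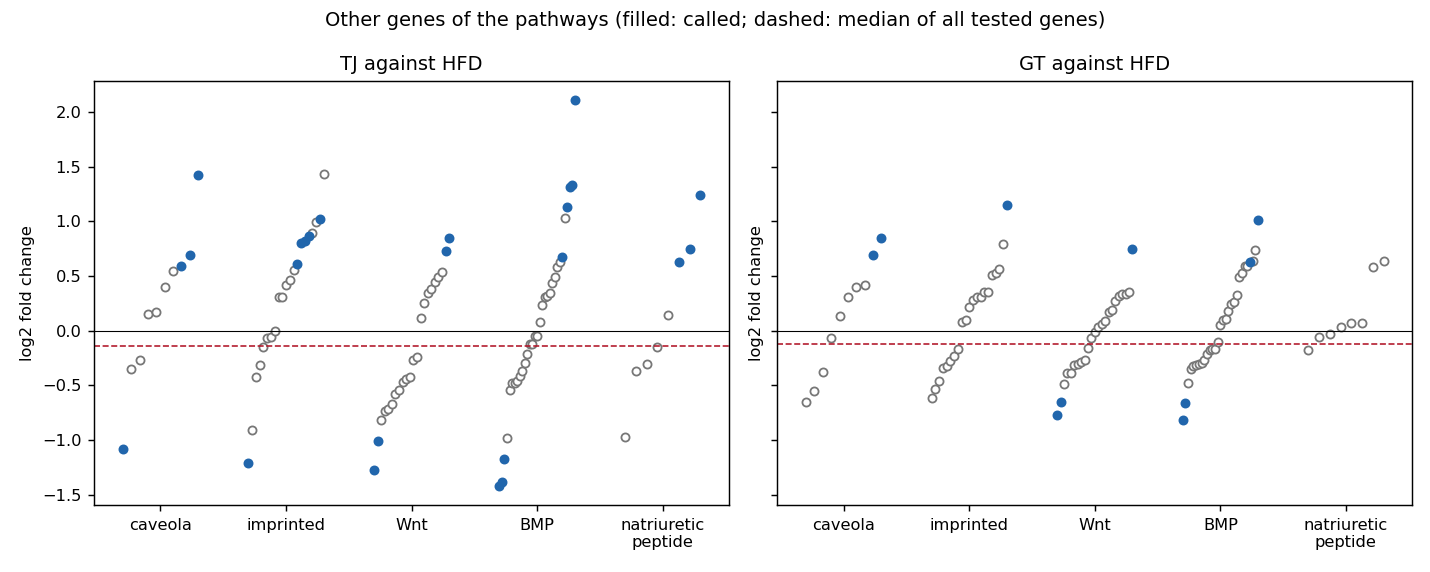
log2 fold changes on the log2(FPKM + 1) scale of the tested genes of 5 pathway lists, sorted within each list, for TJ against HFD and GT against HFD. Filled points were called and the dashed line is the median of all tested genes, -0.139 for TJ and -0.122 for GT. Called genes lie on both sides of 0 in the caveola, imprinted, Wnt and BMP lists with TJ.

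The genes taken as most alike in pattern were those with the highest Pearson correlation of log2(FPKM + 1) over the 12 libraries, among 13934 genes. These values describe the libraries, which share the 4 groups, and have no test. Mest was closest to Npr3 (r = 0.995), Npr3 to Ldah and Zcchc24 (0.996 for both) and then to Mest, Nnat to Chst1 (0.993), Sfrp5 to Sod3 (0.992) and Bmp3 to Serpinb9 (0.982). ND 1 carries much of this. Over the other 11 libraries Mest and Npr3 were still alike (0.935), but Mest was closest to Wnt5a (0.976) and Npr3 to Hspa12a (0.949). Nnat remained closest to Chst1 (0.986), followed by Adipoq, the gene for adiponectin (0.979), and Sfrp5 to Sod3 (0.970). Bmp3 was closest to Ighm (0.930) and had a correlation of 0.874 with Lep, and Sncg was closest to Ccl11 (0.963).

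Among the 6 genes themselves, over the 11 libraries without ND 1, 2 pairs had a correlation above 0.8, Mest with Npr3 (0.935) and Nnat with Sncg (0.837). The correlation of Mest was -0.005 with Sfrp5, -0.164 with Nnat and -0.455 with Sncg. Over all 12 libraries every pair was positive, from 0.427 for Mest and Sncg to 0.995, with ND 1 the lowest library for each gene.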

How the data were processed

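The authors filtered reads from TruSeq libraries, mapped them with STAR and computed FPKM values with Cufflinks 2.1.1 on Ensembl release 72, with corrections for multireads and fragment bias and with noncoding regions masked. The human genome is named in the methods, while all 23474 deposited identifiers are mouse. The submitters' processing notes name STAR 2.4.0, another version than the methods. Depth was estimated from the steps between low FPKM values and is approximate, so no counting intervals were derived.

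Names, coordinates and exons came from GENCODE mouse release 21 (GRCm38). Libraries were grouped by their labels, none were identical, and p-values measure the spread between them. The comparisons used limma 3.58.1 under R 4.3.3 on log2(FPKM + 1), by lmFit and by eBayes with its trend option, each on the 6 libraries concerned and on genes whose mean reached 1 FPKM there. The pseudocount understates changes of low genes. P-values were adjusted by Benjamini-Hochberg over all genes tested. The 3 HFD libraries enter 3 comparisons. Exact permutation tests were two-sided. The fit was tested on simulated data.

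The 8 genes, the lists and the tests were chosen with earlier results of these data known. The text names the 8 genes, up to 4 called genes with the largest change per list and comparison with its highest and lowest member, and the genes most correlated over 12 libraries with each of the 6 measured genes. Sgce, Gnas, Id3 and Smad6, the TJ values of Bmp6 and Fst, the FPKM of Wnt5a, the leptin values and the correlations over 11 libraries were added with their values known, and some genes under the rule are not reported here. Whether the replicate numbers pair the libraries of HFD and ND is not known, since no source names anything shared. Deviations from the group means correlated at 0.55, 0.34 and 0.12 for the same numbers, and HFD 3 correlated more with ND 2 (0.63) than with ND 3. The reported fits used no block. In the other comparisons at least 1 pair of the same number was under 0.1. Alternatives were other pseudocounts, filters, scalings, thresholds and libraries, the replicate block, array weights, no trend and a transcript length correction.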

Additional observations from a re-analysis of the deposited data

How the results depend on the processing

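Of the 6 tested genes, 3 were called in TJ against HFD, 1 in GT against HFD and 0 in HFD against ND and in TJ against GT. In TJ against HFD the count was 2 without a filter, where Sncg lost its call (adjusted p = 0.0842), and 2 at a fold change of at least 2. With all 12 libraries in the fit, 0 were called in TJ against HFD and 0 in GT against HFD. With the 11 libraries other than ND 1 in the fit, 3 were called in TJ against HFD. Over the whole table, TJ against HFD had 1 gene called with the 12 libraries and 3003 with the 11. In GT against HFD the count was also 0 without a filter, with the replicate block, with eBayes without the trend and with the 11 libraries other than ND 1, and it was 3 with a mean of at least 5 FPKM and with array weights. Array weights gave 3 in HFD against ND and 2 in TJ against GT, while the calls over the whole table went from 255 to 6057 and from 18 to 1659. Without HFD 1 and HFD 2 the count was 0 in TJ against HFD and in GT against HFD, but the 1 HFD library left is taken to vary like the other group, so these counts say nothing of stability. Leaving out 1 library in turn gave 0 to 3 in TJ against HFD, 0 to 3 in GT against HFD and 0 to 2 in HFD against ND. Without ND 1 and with median-of-ratios scaling 1, Nnat, was called in HFD against ND, 3 without ND 1 and ND 3, and 1 without ND 1 and HFD 1. The replicate numbers do not pair the libraries of TJ and HFD, GT and HFD, or TJ and GT; with the block the call of Sncg in TJ against HFD was lost (adjusted p = 0.0523), and all genes called went from 2366 to 1198 in TJ against HFD, from 464 to 5 in GT against HFD and from 18 to 18 in TJ against GT.

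Genes called over the whole table ranged over the alternatives from 0 to 3412 (main 2366) in TJ against HFD, 0 to 1589 (464) in GT against HFD, 0 to 6057 (255) in HFD against ND and 4 to 1659 (18) in TJ against GT. The alternatives that leave out 2 libraries, join ND 1 left out with scaling, or use 11 libraries, and the lists and marker differences without ND 1 and over all genes, were chosen after the data were seen.

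Signs changed in log2 fold changes that had not been called. Mest in TJ against HFD was 0.058 with array weights and ran from -0.50 to 0.31 over the libraries left out, positive without TJ 2. Npr3 in TJ against HFD was 0.003 with array weights, 0.045 with median-of-ratios scaling, 0.17 with the length trend removed and 0.19 without TJ 2. Bmp3 in GT against HFD was 0.019 with median-of-ratios scaling, 0.002 with quantile normalization, and -0.27 to 0.014 over the libraries left out, positive at 0.011 without GT 1 and at 0.014 without HFD 3. Sfrp5 in TJ against GT was -0.11 with quantile normalization, -0.021 with the length trend removed and -0.011 to 0.32 over the libraries left out, negative without GT 1. In HFD against ND, Nnat was -1.68 to 0.12 over the libraries left out, positive without ND 2, and Sncg -0.12 with median-of-ratios scaling, and Mest was -0.26 with array weights. Of the fits with 1 library left out, that without ND 2 gave the highest values, 3.14 for Mest, 2.70 for Npr3 and 0.40 for Sncg. With the length trend removed Sncg was at 0.97, against 0.05 as reported. Without ND 1, without ND 1 with median-of-ratios scaling, without ND 1 and ND 3, without ND 1 and HFD 1 and without ND 1 and HFD 2, in that order, the values were -0.41, -0.46, -0.48, -0.28 and -0.49 for Mest, -0.16, -0.21, -0.41, -0.028 and -0.24 for Npr3 and -0.30, -0.35, -0.65, -0.33 and -0.29 for Sncg. The cause of these changes was not tested. FPKM gives no counting error, so precision rests on 3 libraries per group.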

Other observations

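The marker lists not yet described are given for TJ against HFD. Of the mesothelial markers 1 of 7 was called lower. Of the lymphocyte, epididymis, germ cell, red blood cell, and Schwann cell and neuron markers, 0 of 4, 0 of 5, 0 of 15, 0 of 5 and 0 of 2 were called by limma, with 2, 0, 5, 1 and 1 at an unadjusted p under 0.05. Of the brown or beige adipocyte markers 1 of 3 was called lower. The Schwann cell and neuron markers, 8 genes of which 2 passed the filter, summed to 3.32 to 5.22 FPKM in HFD and 3.86 to 6.85 in TJ. Sncg, which peripheral neurons also express, was at 528 to 1734 FPKM in the same libraries. Levels of different genes do not show which cells a transcript came from, and the source of Sncg was not tested.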
